A study of Mus musculus with 23 samples.

Results

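The first day of mouse myotube differentiation was compared with proliferation in primary myoblasts. It was defined by the sample labels as 3 myotube samples differentiated for 1 day against 3 samples of proliferating myoblasts, which are 6 of the 23 samples of the series. All samples of both groups were of male C57BL/6J mice. The proliferating cells were at passages 8 to 10 in Ham's F-10 with 20% fetal bovine serum and 5 ng/ml basic fibroblast growth factor (bFGF), on collagen. For the myotubes, confluent myoblasts were placed on Matrigel and changed to DMEM with 2% horse serum for 1 day. Medium, serum, bFGF, coating and cell density therefore differ together between the groups, and their parts in any difference cannot be told apart. Each sample was 1 one-colour Agilent array of total RNA from a whole culture, in which fewer cells of a type and less RNA per cell cannot be told apart. The titles give the cultures of both groups the same 3 numbers, and the labels do not say whether these mark animals. The other samples of the series are embryonic stem cells, passage 0 myoblasts, myotubes of later days and adult muscle. Those used here entered the estimate of each gene's spread, and some of their levels are given as a description.

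Myoblasts are the committed progeny of muscle stem cells. When growth factors are withdrawn they leave the cell cycle, switch on myogenin under the control of MyoD, and then fuse into multinucleated myotubes that assemble sarcomeres. Inhibitors of DNA binding (Id proteins) hold MyoD in check during growth, cyclin-dependent kinase inhibitors keep the exit from the cycle permanent, and the membrane proteins myomaker and myomixer carry out fusion. Sterol synthesis is governed in most cells by the SREBP transcription factors, which are released to the nucleus when membrane cholesterol is low, as when lipoproteins of serum are scarce.

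Each level is given in log2 units above or below the 75th percentile of its array, so that 0 is a spot at that percentile and 1 unit is a factor of 2. Differences are day 1 minus proliferating on the same scale, with the standard error (SE) of the limma fit and an adjusted p over all 19128 genes tested. A gene was called higher or lower when its adjusted p was under 0.05 and its groups differed 2-fold or more. By that rule 1311 genes, or 6.85%, were higher at day 1 and 766, or 4.00%, were lower. The median difference over all 19128 genes tested was -0.04. Testing required all 3 samples of either group well above background, which 15573 genes met in proliferation and 18622 at day 1. More genes thus entered through day 1 alone, where they are high, which favours higher calls. Tested genes above background on fewer than 3 proliferating arrays entered in that way. With both groups required, 15067 genes were tested, of which 919 were higher and 641 lower (58.9% of calls higher in place of 63.1%).

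The array of proliferating replicate 1 was dim. Its 75th percentile of signal was 87.67 intensity units, against 492.5 to 624.1 on the other 5 arrays, and 41.2% of its spots were well above background against 51.3% to 57.2%. A gene without signal therefore sits higher on its scale: Myf5, an early myogenic factor that was not above background on any of the 6 arrays, read -3.99 there and -6.90 to -6.25 elsewhere. The median SD over genes was 0.662 among proliferating samples and 0.391 among day 1 samples. Without that array 1173 genes (5.72%) were higher and 985 (4.80%) lower, of which 957 and 532 were among those called with it. A fit of the 6 samples alone, with no spread borrowed from other groups, called 265 genes higher (1.39%) and 119 lower (0.622%). The 2 groups did not overlap for 2546 genes that were higher at day 1 (13.3%) and for 1707 that were lower (8.92%). Day 1 replicate 3 weighed most on the counts: without it 788 genes were higher and 434 lower. The title of that sample carries an extra code after the day, which the titles of the other day 1 samples lack. In what follows a named gene kept its call with each of the 6 samples left out in turn unless the text says otherwise.

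**Figure D1:**
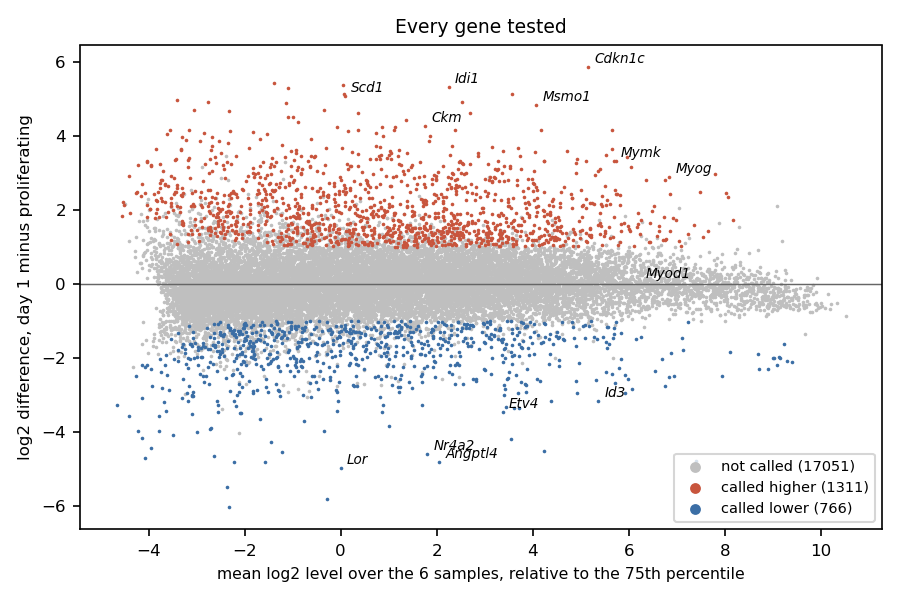
Every gene tested, with its mean level over the 6 samples on the horizontal axis (log2, relative to the 75th percentile) and its log2 difference, day 1 minus proliferating, on the vertical axis. Red points are the 1311 genes called higher and blue points the 766 called lower. Cdkn1c is at the top at 5.84, with the sterol genes Idi1, Scd1 and Msmo1 near it, and Myod1 lies at 0.05.

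The cells carried the marks of the muscle lineage in both groups. Myod1, the MyoD gene, was at 6.31, 6.38 and 5.93 in proliferating replicates 1 to 3 and at 6.31, 6.62 and 5.83 at day 1. The groups overlapped, and the difference was 0.05 ± 0.36 (SE, adjusted p = 0.96). Pax7, a marker of muscle stem cells and myoblasts, ranged from 1.61 to 3.87 in proliferation and from 1.63 to 2.48 at day 1 (difference -0.55 ± 0.41, adjusted p = 0.47). Chrna1, the acetylcholine receptor subunit of muscle, stood at 7.75 to 8.24 and at 8.38 to 8.96, with a difference of 0.57 that was not called (adjusted p = 0.34).

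Of the 41 gene lists described here, the one with the highest share of called members was sterol synthesis and uptake, with the fatty acid genes under the same control. Of its 36 tested members 32 were higher at day 1 and none was lower, where 6.85% of all genes tested were higher. The median difference was 2.83, against -0.04 over all genes, and within the 3 slides, each of which held 1 sample of either group, it was 3.28, 2.66 and 2.75. Per sample, the median level of the 36 genes was 0.29, 0.85 and 0.23 in proliferation and 2.80, 3.39 and 3.03 at day 1. Without the dim array 32 were still higher, the fit of the 6 samples alone called 22, and 30 kept their call whichever sample was left out.

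The promoters of 3 of these genes are shown because members of the list moved together, and CCAAT, the box bound by the factor NF-Y, which acts with SREBP, was searched in them on both strands. The windows are the 250 bases before the gene's start in RefSeq on GRCm38.p6: chr13:119690101-119690350 for Hmgcs1, chr13:8885356-8885605 for Idi1 and chrX:72918271-72918520 for Nsdhl, all on the + strand. Capitals mark CCAAT or its reverse ATTGG, and in Hmgcs1 also TCACNCCAC, the letters of a sterol response element, which did not overlap a CCAAT match.
Hmgcs1: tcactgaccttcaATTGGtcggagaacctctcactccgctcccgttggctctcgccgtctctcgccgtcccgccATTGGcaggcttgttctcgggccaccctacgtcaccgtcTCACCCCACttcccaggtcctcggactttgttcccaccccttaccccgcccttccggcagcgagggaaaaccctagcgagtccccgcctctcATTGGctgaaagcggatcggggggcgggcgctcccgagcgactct
Idi1: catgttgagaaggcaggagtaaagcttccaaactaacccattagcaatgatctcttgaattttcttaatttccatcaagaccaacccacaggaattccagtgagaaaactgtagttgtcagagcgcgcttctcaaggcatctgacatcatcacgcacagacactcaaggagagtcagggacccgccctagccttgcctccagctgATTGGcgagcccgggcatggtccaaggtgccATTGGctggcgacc
Nsdhl: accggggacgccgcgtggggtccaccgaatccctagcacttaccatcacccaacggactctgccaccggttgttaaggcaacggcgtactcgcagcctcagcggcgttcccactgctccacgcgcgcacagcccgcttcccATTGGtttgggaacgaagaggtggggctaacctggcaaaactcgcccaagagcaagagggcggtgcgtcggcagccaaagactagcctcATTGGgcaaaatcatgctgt

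CCAAT was found 3 times in Hmgcs1, 2 times in Idi1 and 2 times in Nsdhl. Of the 36 tested sterol genes 25 had a promoter in the table, and 20 of these, or 80%, held CCAAT in at least 1 window. The share was 37.5% of all 27025 genes in the table and 39.9% of the 10445 tested genes with a promoter. Among the mitotic genes described below it was 72.5%. TCACNCCAC was found in 1 of the 25, Hmgcs1, against 1.22% of all genes in the table.

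An early enzyme of the pathway rose. Further genes of this list are named by their place in the pathway, a choice made after their values were seen. Hmgcs1, a synthase on the way to mevalonate, was at 1.48, 2.58 and 2.26 in proliferation and at 6.00, 6.42 and 6.33 at day 1. The lowest day 1 sample thus lay far above the highest proliferating one, and the difference was 4.15 ± 0.31 (adjusted p = 7.9e-07).

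Isoprenoid and squalene genes followed with some of the highest differences of the whole comparison. Idi1, the isomerase that makes the activated isoprene unit, had levels of -1.31, 0.31 and -0.22 in proliferation and of 4.81, 5.10 and 4.82 at day 1. This 39.9-fold difference of 5.32 ± 0.38 had an adjusted p of 5.4e-07. The probe of Idi1 lies at chr13:8891524-8891583 in mm9, the build of the file's probe positions. Fdps and Fdft1, which build farnesyl pyrophosphate and squalene, rose by 3.48 and 3.57, and Sqle, the squalene epoxidase, by 2.83. Ggps1, which leads away to geranylgeranyl lipids, did not pass the test (0.36 ± 0.41, adjusted p = 0.67).

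The later enzymes, from lanosterol to cholesterol, rose too. Msmo1, a sterol demethylase, went from 0.97, 2.27 and 1.75 to 6.09, 6.68 and 6.69 (4.82 ± 0.38, adjusted p = 1.3e-06). Cyp51, the lanosterol demethylase, had a difference of 5.11 ± 0.53 and was above background on 2 of 3 proliferating arrays. Nsdhl rose by 4.23, Lss by 3.39, Dhcr7 by 3.18 and Sc5d by 2.60. Ebp, an isomerase of the same stretch, overlapped between groups and was not called (0.64 ± 0.43).

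Regulation and desaturation showed the same direction. Srebf2, the SREBP of sterol genes, rose 4.19-fold and Srebf1 3.06-fold, and Insig1, which retains SREBP in the endoplasmic reticulum, by 2.80 on the log2 scale. Srebf1 was above background on 2 of 3 proliferating arrays. Scd1, the stearoyl-CoA desaturase, moved from -1.86, -1.96 and -3.50 to 1.80, 3.16 and 2.88, a difference of 5.06 ± 0.52 (adjusted p = 1.3e-05), and Scd2 rose by 4.16. Of the fatty acid genes Acly and Fasn rose by 1.69 each, Fasn not without day 1 replicate 3 (1.51, adjusted p = 0.070), whereas Acaca (0.87) and Fads1 (0.41) were not called. Acat2 was called at 1.65 but its groups overlapped and the call was lost when any of 4 samples was left out, at adjusted p from 0.059 to 0.13. The efflux pumps Abca1 and Abcg1 were not above background on all samples of either group and were not tested.

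The levels of the sterol genes in other groups of the series put day 1 in place as a description, with no test. The median level of the 36 genes ranged over samples from 0.84 to 1.48 in passage 0 myoblasts, from 2.80 to 3.14 at day 2, from 1.84 to 2.53 at day 4 and from 0.31 to 0.63 in quadriceps. Idi1 had a mean of 4.56 at day 2 and 2.72 at day 4.

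**Figure D2:**
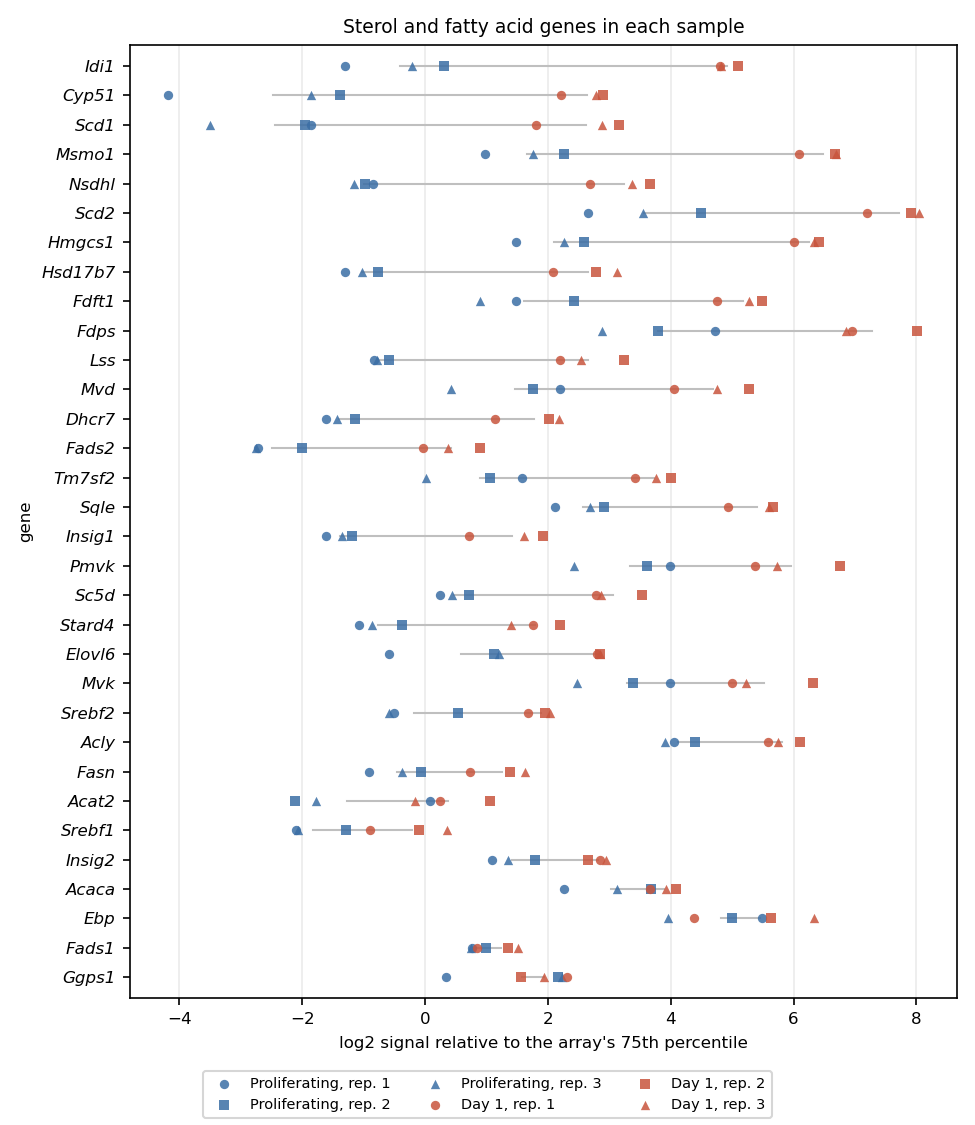
Levels of tested sterol and fatty acid genes in each sample (horizontal axis, log2 signal relative to the 75th percentile), ordered by the difference between groups. Blue symbols are proliferating and red symbols day 1 samples, the shape gives the replicate, and grey lines join the group means. Blue and red overlap for Acat2, Acaca, Ebp, Fads1 and Ggps1 and separate for the other genes drawn.

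In the list of myogenic transcription factors and their partners, which also holds the sarcomere gene Lmod3 and the ankyrin repeat gene Ankrd2, 9 of 30 tested were higher at day 1 and none was lower, and the median difference was 0.82. Myog, which encodes myogenin, was at 6.07, 5.96 and 4.20 in proliferation and at 8.13, 8.70 and 8.03 at day 1. All day 1 values were higher than all proliferating ones, by 2.87 ± 0.52 on average (7.34-fold, adjusted p = 0.0014). Proliferating replicate 3 was the lowest, as it was for many of the muscle genes below. Mef2c and Mef2d, partners of MyoD at muscle promoters, rose by 2.41 ± 0.53 and 2.13 ± 0.33, while Mef2a (1.00, adjusted p = 0.20) and Myf6 (0.81, adjusted p = 0.73) were not called. Tead4, a DNA-binding factor of muscle and Hippo target genes, was at 0.14, 0.21 and -0.74 and then at 2.64, 2.82 and 3.35 (3.07 ± 0.43, adjusted p = 0.00017). Hdac9, which represses MEF2, had a difference of 3.23 but was above background on 1 of 3 proliferating arrays. The fit of the 6 samples alone called 5 of these 9, Myog, Mef2d, Tead4, Hdac9 and Lmod3. Ankrd2 (2.91) lost its call when any of 5 samples was left out, at adjusted p from 0.056 to 0.12.

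The window before the start of Myog is shown because its gene rose and its regulators were measured alongside, chr1:134289754-134290003 on the + strand of GRCm38.p6, from RefSeq. Capitals mark CTANNNNTA, the letters of a MEF2 site, and the E-box CANNTG, which MyoD-type factors bind, searched on both strands. The matches do not overlap each other.
Myog: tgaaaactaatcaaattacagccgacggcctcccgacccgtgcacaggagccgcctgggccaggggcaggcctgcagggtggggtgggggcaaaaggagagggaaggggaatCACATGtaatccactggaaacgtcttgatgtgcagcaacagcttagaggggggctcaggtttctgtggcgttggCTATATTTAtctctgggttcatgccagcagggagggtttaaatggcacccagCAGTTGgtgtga

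The MEF2 match lies 64 to 56 bases before the start, and E-boxes lie at 138 to 133 and at 12 to 7 bases. CTANNNNTA was found in 16.1% of tested genes with a promoter and 21.4% of all genes in the table, and in 9 of 21 genes of that list and 12 of 25 genes of the sarcomere scaffold. CANNTG is common, in 69.3% of all genes in the table.

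The inhibitors of myogenesis split. Id3 was at 7.23, 7.20 and 6.43 in proliferation and at 4.27, 4.38 and 2.70 at day 1, so that it fell 9.01-fold (-3.17 ± 0.59, adjusted p = 0.0016). Id1 fell by 2.96 ± 0.79, from 5.78, 4.92 and 4.83 to 3.59, 3.22 and -0.15. Day 1 replicate 3 was by far the lowest for Id1, and the call was lost without it (-1.77, adjusted p = 0.11) and without proliferating replicate 1 (-2.66, adjusted p = 0.065). Id2 had a difference of -1.67 that was not called (adjusted p = 0.11), and was called lower without the dim array (-2.25, adjusted p = 0.040).

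Genes of the Notch pathway, which keeps muscle stem cells quiescent, were higher where they were called. Heyl, a repressor induced by Notch, read -3.82, -1.31 and -4.09 in proliferation and 0.12, 1.78 and 1.96 at day 1. The difference was 4.36 ± 0.61 (adjusted p = 0.00017), with 2 of 3 proliferating arrays above background. Hey1 rose by 2.33 ± 0.38 (adjusted p = 0.00057) with 2 of 3 proliferating arrays above background, and had a mean of -0.97 at day 2. Notch3 was called at 1.42 ± 0.41 (adjusted p = 0.029), but lost its call when any of 5 samples was left out, at adjusted p from 0.055 to 0.12. In the list of Id, Notch and other inhibitors, 7 of 21 tested genes were higher and 2 lower, with a median of -0.02, and without proliferating replicate 3 the count of higher genes was 4. Of 17 tested progenitor markers 3 were higher (17.6%) and 1 lower (5.88%), against 6.85% and 4.00% of all genes tested. The counts were 5 and 1 without proliferating replicate 2 and 2 and 3 without the dim array.

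The cyclin-dependent kinase inhibitor Cdkn1c (p57) had the highest fold among the genes above background on all 6 samples. Its levels were 2.58, 2.47 and 1.64 in proliferation and 8.31, 7.09 and 8.80 at day 1, or 57.2-fold higher (5.84 ± 0.75, adjusted p = 8.5e-05). All 3 day 1 samples were far above all proliferating ones. The mean was 8.17 ± 0.81 (SD, n = 3) at day 2 and 4.85 ± 1.27 at day 4. Its probe lies at chr7:150644753-150644812 in mm9. Rb1, the retinoblastoma gene that holds back E2F, rose by 2.60 ± 0.50 (adjusted p = 0.0022), and on the dim array it was lower than in any other sample, at -0.34. Cdkn1a (p21) was already high in proliferation, at 6.00, 6.61 and 4.93, and stood at 7.04, 7.68 and 7.48 at day 1. Its difference of 1.56 ± 0.48 passed (adjusted p = 0.041), but with each sample but proliferating replicate 2 left out it did not, at adjusted p from 0.055 to 0.14, and its 3 probes ran from -0.37 to 1.56. Cdkn1b (0.51) and Cdkn2c (0.71) were not called. Of 23 tested inhibitors and exit genes 7 were higher and 1, Gas6, was lower (-2.68 ± 0.41), and without day 1 replicate 1 or replicate 3 the higher count was 4.

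DNA replication genes were lower at day 1. Of 45 tested, 27 fell and 1 rose, where 4.00% of all genes fell, and the median difference was -1.32. Cdt1, which licenses replication origins, was at 5.33, 5.11 and 5.16 in proliferation and at 3.05, 2.73 and 1.68 at day 1 (-2.71 ± 0.35, adjusted p = 9.3e-05). Chaf1b, a histone chaperone at the fork, fell by 2.65, and Mcm5, a subunit of the replicative helicase, fell by 2.33 ± 0.50 (adjusted p = 0.0046), from 4.66, 4.38 and 3.48 to 2.37, 2.56 and 0.60. Pcna, the sliding clamp, overlapped between groups and was not called (-1.11 ± 0.38, adjusted p = 0.067), but was without the dim array (-1.49, adjusted p = 0.017). E2f2 was the member that rose, from 1.89, 3.14 and 2.87 to 5.33, 5.23 and 5.52 (2.72 ± 0.39, adjusted p = 0.0002), while E2f1 had a difference of -1.15 (adjusted p = 0.053) and was called lower without proliferating replicate 3 (adjusted p = 0.019) or day 1 replicate 2 (adjusted p = 0.037).

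The size of the replication result varied between day 1 samples. The median level of the 45 genes was 3.39, 3.84 and 3.18 in proliferation and 2.45, 2.56 and 1.29 at day 1, lowest in replicate 3. Within slides the median differences were -0.80, -0.72 and -2.47, the last on the slide of day 1 replicate 3. Without that sample 10 genes fell and without proliferating replicate 2 13 did, and 11 of the 28 called genes kept their call whichever sample was left out. The fit of the 6 samples alone called 1 lower, Cdt1, and 1 higher, E2f2. Even so, 34 of the 45 had groups that did not overlap downwards, against 8.92% of all genes tested.

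Fewer mitotic genes passed the test on this day. Of 48 tested, 7 fell and none rose, and all 48 differences were negative, with a median of -0.95. Mybl2, an E2F target that drives mitotic genes, fell from 4.23, 4.45 and 3.70 to 2.08, 2.04 and 0.40 (-2.62 ± 0.44, adjusted p = 0.00072) and was the 1 gene of the 7 that kept its call with every sample left out. Mki67, the proliferation marker, was at 2.22, 4.87 and 5.05 in proliferation and at 4.10, 3.13 and 3.40 at day 1. Its groups overlapped, with the lowest value on the dim array, and it was not called (-0.50 ± 0.89, adjusted p = 0.80). Ccnb1, the mitotic cyclin, and Top2a, the topoisomerase of condensing chromosomes, had differences of -0.98 (adjusted p = 0.48) and -0.75 (adjusted p = 0.63). Within slides the medians were 0.21, -0.66 and -2.44, so on the slide of the dim array and day 1 replicate 2 the genes were slightly higher at day 1. Without day 1 replicate 3, 1 of the genes was called, and without proliferating replicate 2 or 3, 4 were.

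Over samples the median level of the mitotic genes was 2.09, 3.39 and 2.94 in proliferation and 2.20, 2.23 and 0.91 at day 1, and it was -1.54 to -1.08 at day 2. For the replication genes the day 2 samples were at -0.21 to 0.17. The means at day 2 were -0.94 for Mki67, -1.88 for Ccnb1 and -0.96 for Mcm5. These later values are given as a description. The CHR letters TTTGAA, which bind the complexes that silence mitotic genes, were found in 15 of 40 mitotic promoters, against 12.8% of tested genes with a promoter.

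**Figure D3:**
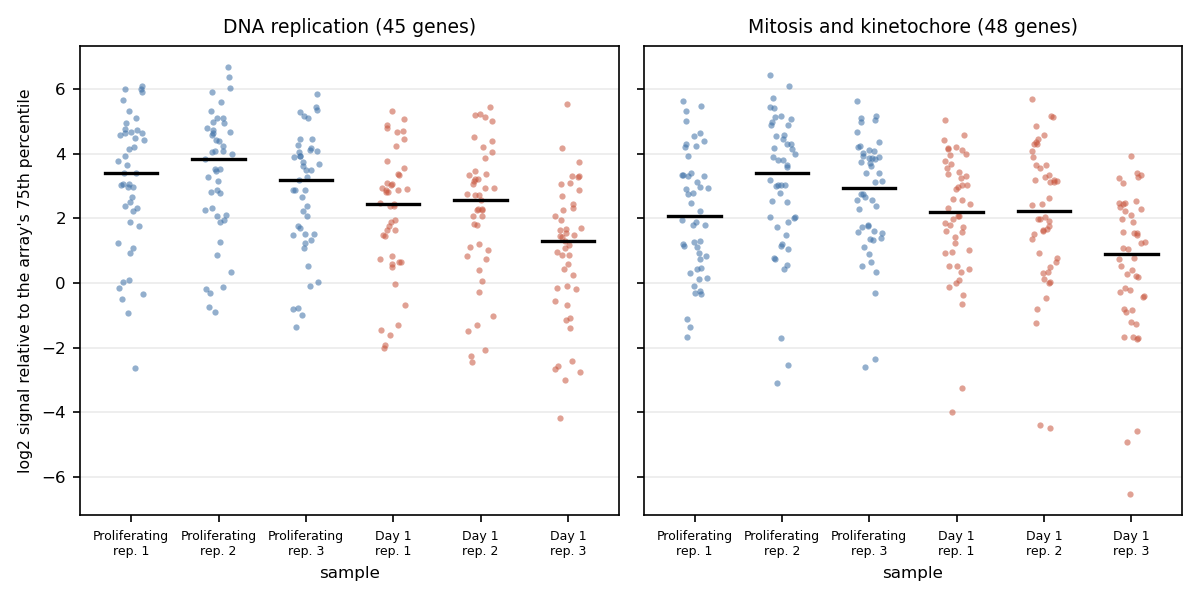
Levels (vertical axis, log2 signal relative to the 75th percentile) of the 45 tested DNA replication genes and the 48 tested mitosis genes in each of the 6 samples (horizontal axis). Each point is a gene, black bars are medians, blue is proliferating and red day 1. Day 1 replicate 3 has the lowest median of both lists, 1.29 and 0.91, and the medians of mitotic genes in proliferating replicate 1 (2.09) and in day 1 replicates 1 and 2 (2.20 and 2.23) lie close together.

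Cyclin D1, which couples growth factors to the cycle, fell. Ccnd1 was at 6.42, 6.51 and 6.26 in proliferation and at 5.65, 4.76 and 3.88 at day 1 (-1.64 ± 0.43, adjusted p = 0.019), and lost its call without day 1 replicate 2 (adjusted p = 0.053) or 3 (-1.19, adjusted p = 0.13). Cdc25a, the phosphatase that activates cyclin-dependent kinases, fell by 1.24 ± 0.28. Ccnd3, the cyclin D that stays in differentiated muscle, was at 6.64 to 7.64 and at 7.16 to 8.13 and was not called (0.43 ± 0.39). Of the 12 tested cyclins D and growth-phase kinases Ccnd1 and Cdc25a were lower (16.7%, against 4.00% of all genes tested) and none was higher. With day 1 replicate 2 or 3 left out 1 was lower.

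In the list of growth factor receptors and immediate early genes 10 of 28 fell, 1 rose and 17 were not called, with a median of -0.80. Etv4, a transcription factor downstream of FGF, was at 5.13, 5.05 and 5.15 in proliferation and at 2.18, 1.45 and 1.27 at day 1 (-3.47 ± 0.54, adjusted p = 0.00044). Its sister gene Etv5 fell by 1.74, Fosl1, an AP-1 subunit, fell by 2.81 and Ier3 by 2.36 (log2 difference -2.36). The feedback inhibitor Spry1 did the opposite, at 0.13, 0.68 and 0.64 and then at 3.42, 3.72 and 3.13 (2.94 ± 0.26, adjusted p = 3.4e-06). The fit of the 6 samples alone called 3 lower genes, and without day 1 replicate 2 or 3 the lower count was 6.

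Of 15 tested chemokines and cytokines 5 were lower, none was higher and 10 were not called, with a median difference of -1.27 and slide medians of -2.12, -0.96 and -1.21. Csf1, the macrophage growth factor, went from 5.44, 6.23 and 6.22 to 3.17, 2.31 and 2.91 (-3.16 ± 0.49, adjusted p = 0.00039). Cxcl12, which guides migrating progenitors, fell by 2.59 ± 0.61. Ptgs2 (cyclooxygenase 2) fell by 4.54 ± 1.08 and was above background on 2 of 3 day 1 arrays, with an adjusted p of 0.050 without day 1 replicate 3. Cx3cl1 was called (-2.57 ± 0.77) but not when any of 5 samples was left out, at adjusted p from 0.060 to 0.15. The fit of the 6 samples alone called 4 of the list lower, and without day 1 replicate 3 the count was 3.

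Of 36 tested fusion genes 11 were higher, 1 was lower and 24 were not called, with a median of 0.61. Mymk (myomaker) was at 4.71, 4.84 and 2.59 in proliferation and at 6.74, 7.30 and 8.03 at day 1, a 9.93-fold difference (3.31 ± 0.56, adjusted p = 0.00079). Mymx (myomixer) went from 5.41, 4.70 and 3.34 to 7.60, 7.64 and 7.65 (3.15 ± 0.57, adjusted p = 0.0014). Both were thus well above the 75th percentile in proliferating cells already. Dysf (dysferlin), which repairs muscle membrane, rose by 2.76 ± 0.33. Capn3, a muscle protease, was called at 3.56 ± 1.03, yet its groups overlapped and it lost the call when any of 4 samples was left out, at adjusted p from 0.089 to 0.13. Of this list, Dysf and Mymx were called in the fit of the 6 samples alone. Cdh15 (M-cadherin), also a marker of satellite cells, was called at 1.42 ± 0.38 but not without proliferating replicate 1 (adjusted p = 0.056), proliferating replicate 3 (0.064) or day 1 replicate 3 (0.12).

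Contractile genes were higher in part, some from levels already above the 75th percentile in proliferation. Acta1, skeletal actin, was at 8.21, 7.06 and 5.43 in proliferation and at 8.94, 9.37 and 9.38 at day 1 (2.33 ± 0.50, adjusted p = 0.0046). Proliferating replicate 1 was the highest and replicate 3 the lowest of its group. Myh3, embryonic myosin, went from 6.22, 6.96 and 5.75 to 9.05, 9.15 and 9.60 (2.95 ± 0.75, adjusted p = 0.015). That call was lost without proliferating replicate 3 (adjusted p = 0.051) or day 1 replicate 3 (0.066), although the groups did not overlap. Myh8, neonatal myosin, rose by 2.42 ± 0.46. Its mean in adult quadriceps was 11.04, against 10.47 for the adult myosin Myh4, and whether its probe reads Myh8 alone was not tested. Actc1, cardiac actin, had a difference of 2.10 that was not called (adjusted p = 0.089). The groups of Actc1 did not overlap. Its SD was 0.84 in proliferation, 0.09 at day 1 and 2.05 in quadriceps, which also enters the fit.

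Among adult myosins Myh4 (type 2B) was at -0.64, -2.47 and -2.61 and then at 2.07, 1.23 and 3.33, or 4.12 ± 0.72 higher (adjusted p = 0.0011). Myh1 (type 2X) rose by 2.37 ± 0.51. Myh2 (type 2A) was above background on 1 of 3 proliferating arrays and was not called (1.01 ± 0.81), nor was the slow myosin Myh7 (0.80 ± 1.85). The SE of Myh7 holds the spread of all groups fitted. Its SD was 0.66 in proliferation, 0.32 at day 1 and 6.28 in quadriceps. The troponins Tnnt2 and Tnni2 rose by 2.48 and 2.80. By list, 8 of 16 embryonic and neonatal sarcomere genes, 10 of 17 adult fast genes and 3 of 17 slow and cardiac genes were higher, and none of these lists held a lower gene. Their medians were 2.06, 2.09 and 0.85, and Tnnt3 and Mylpf count in both of the first lists. Mylpf (2.27) lost its call when any of 4 samples was left out, at adjusted p from 0.051 to 0.12. In the slow list 1 gene was higher without day 1 replicate 3.

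Of 36 tested genes of the Z disc and M band 22 rose and none fell, with a median of 1.98. Unc45b, the myosin chaperone, was at 0.14, -1.06 and -1.99 in proliferation and at 3.14, 2.97 and 3.42 at day 1 (4.14 ± 0.48, adjusted p = 3.7e-05). Tmod1, which caps thin filaments, rose 16.8-fold (4.07 ± 0.46). Klhl40 and Klhl41, genes of nemaline myopathy that stabilise thin filament proteins, rose by 3.07 and 3.04. Ttn (titin) was called at 2.30 ± 0.61 but not without proliferating replicate 1 (1.85, adjusted p = 0.080) or day 1 replicate 3 (1.74, adjusted p = 0.12), and its probes ran from 0.33 to 2.74.

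Calcium handling genes rose with them. Of 27 tested genes of excitation and contraction coupling 17 were higher and none lower, with a median of 2.03. Hrc, a calcium-binding protein of the sarcoplasmic reticulum, was at 4.35, 4.60 and 2.55 and then at 6.91, 7.06 and 8.42 (3.63 ± 0.53, adjusted p = 0.00025). Trdn (triadin) rose by 3.47 ± 0.64, with 2 of 3 proliferating arrays above background, Casq2 (calsequestrin) by 3.32 ± 0.73 and the calcium pump Atp2a1 by 2.80 ± 0.52.

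The muscle lists differed in size between samples. The median level of the coupling genes was 1.98, 2.18 and 1.29 in proliferation and 3.45, 3.68 and 4.73 at day 1, and that of the adult fast genes 2.26, 1.70 and 1.09 and then 3.97, 4.55 and 5.78. Day 1 replicate 3 was the highest for both and was also the sample with the lowest medians for replication and mitosis. On the slide with the dim array the medians were lower, at 0.56 for adult fast, 0.96 for embryonic, 1.19 for scaffold and 1.05 for coupling genes, against 1.75 to 3.11 on the other slides. Without day 1 replicate 3 the higher counts were 6, 4, 11 and 12 in that order, and without proliferating replicate 3 they were 6, 4, 17 and 14. The fit of the 6 samples alone called 1, 1, 8 and 6.

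**Figure D4:**
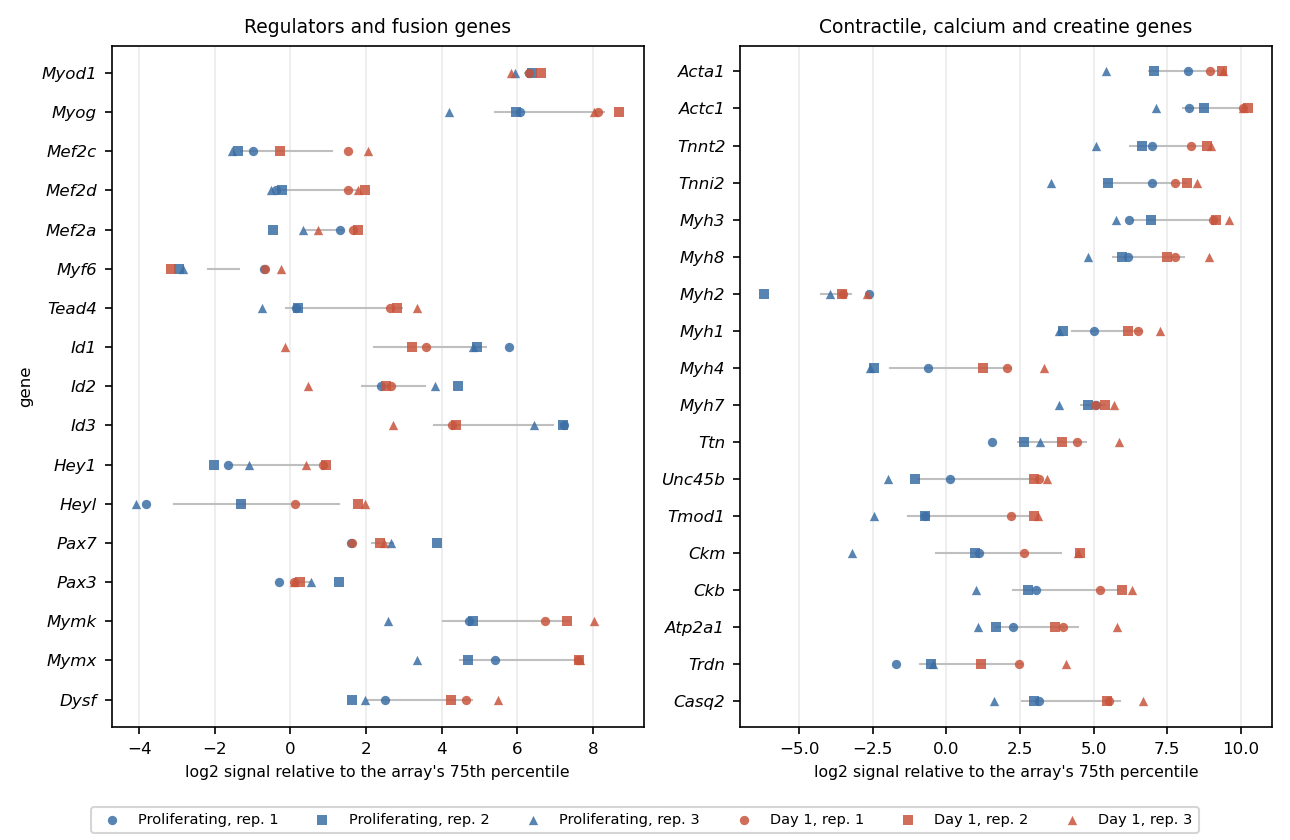
Levels (horizontal axes, log2 signal relative to the 75th percentile) of named regulators and fusion genes, left, and of named contractile, calcium and creatine genes, right. Blue symbols are proliferating and red symbols day 1 samples, shapes give the replicate and grey lines join group means. Myod1 overlaps (difference 0.05), Myog, Mymk and Mymx shift right by 2.87, 3.31 and 3.15, and Id3 shifts left to 2.70 to 4.38.

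Membrane and junction genes of the muscle fibre rose in part. In the dystrophin complex 6 of 19 were higher and 1 lower, among them Dag1 (dystroglycan), at 0.82, 2.73 and 1.64 and then at 4.18, 4.88 and 5.46 (3.11 ± 0.40, adjusted p = 8.5e-05). Of 17 genes of the acetylcholine receptor and junction 6 were higher and 1, Etv5, lower, with Erbb3, a neuregulin receptor above background on 2 of 3 proliferating arrays, at 2.50 ± 0.54 and Musk, the junction kinase, at 1.73 ± 0.39. Chrng, the fetal receptor subunit, rose by 2.04 but not without proliferating replicate 3 (adjusted p = 0.059) or day 1 replicate 3 (0.090). The fit of the 6 samples alone called 2 of the dystrophin list and none of the junction list, and without day 1 replicate 3 the higher counts were 4 and 3.

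In the list of creatine and glycolysis 10 of 34 were higher, 1 was lower and 23 were not called, with a median of 0.28. Ckm, muscle creatine kinase, was at 1.11, 0.98 and -3.19 in proliferation and at 2.63, 4.55 and 4.47 at day 1 (4.25 ± 0.88, adjusted p = 0.0039). Proliferating replicate 3 stood far below the other two, and the day 1 values were above all 3. Ckb, the brain form, rose by 3.55 ± 0.46 and Gatm, which makes the creatine precursor, by 3.46 ± 0.51. Without day 1 replicate 3 or proliferating replicate 3 the higher counts of the list were 5 and 6. Of 39 respiratory chain genes limma called none higher and none lower, with 11 higher and 0 lower at an unadjusted p under 0.05. Of the 39 differences 37 were positive, with a median of 0.42 and slide medians of 0.48, 0.90 and -0.04. In the same list 3 were called higher without the dim array, 2 without proliferating replicate 2 and 1 without day 1 replicate 2.

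Regulators of metabolism gave 4 higher (13.3%) and 2 lower (6.67%) genes of 30, against 6.85% and 4.00% of all genes tested. Nr4a2, a nuclear receptor and immediate early gene, was at 3.03, 4.64 and 4.64 in proliferation and at 0.03, -0.79 and -0.76 at day 1 (-4.61 ± 0.51, adjusted p = 2.1e-05). Prkag3 and Prkaa2, the muscle subunits of AMP-activated kinase, rose by 3.37 and 3.43, Prkaa2 with 2 of 3 proliferating arrays above background. Cpt1a, the liver form of a mitochondrial carnitine palmitoyltransferase, fell by 1.85 ± 0.33.

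Growth and matrix signals changed at single genes. Smad6, an inhibitor of bone morphogenetic protein signalling, fell from -0.19, 0.76 and 0.25 to -2.80, -1.56 and -2.33 (-2.50 ± 0.40, adjusted p = 0.00047). Wnt9a rose by 2.83 ± 0.51, and Wnt5a was lower by 2.86 on a call lost without proliferating replicate 2 (-1.96, adjusted p = 0.084) or day 1 replicate 1 (-2.42, adjusted p = 0.083). Col5a3, a minor fibrillar collagen, rose by 4.51 ± 0.60 with 2 of 3 proliferating arrays above background. It was 1 of 2 genes called among 30 of collagens and matrix, both higher (6.67%). Igf2 had a difference of 1.49 (adjusted p = 0.080), Igfbp5 one of 1.80 (adjusted p = 0.11) and Mstn, which encodes myostatin, one of 2.12 (adjusted p = 0.21), so none of the 3 was called. Without proliferating replicate 2 Igf2 (1.92, adjusted p = 0.035) and Igfbp5 (2.64, adjusted p = 0.016) were called higher. Without the dim array the differences were smaller, at 1.22 for Igf2 (adjusted p = 0.22) and 0.89 for Igfbp5 (adjusted p = 0.45). Igfbp5 was lowest on the dim array, at 1.05 against 4.54 and 2.99 in the other proliferating samples. Over all genes tested 6.85% were higher and 4.00% lower. By list, 1 of 13 genes of the IGF system was higher (7.69%). Of 29 genes of myostatin, BMP and TGF beta signalling 1 was higher (3.45%) and 3 lower (10.3%). Of 23 Wnt genes 2 were higher (8.7%) and 1 lower (4.35%). Of these calls 0 of 1, 1 of 4 and 1 of 3 were kept with every sample left out.

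Of the chromatin lists, DNA methylation gave 2 higher (8.33%) and 1 lower (4.17%) of 24, near the 6.85% and 4.00% of all genes tested. Polycomb and SWI/SNF gave 1 higher (3.45%) and 3 lower (10.3%) of 29. Of these 3 and 4 calls, 1 in each list was kept with every sample left out. Dnmt1, the maintenance DNA methyltransferase and also a replication gene, was at 0.92, 2.08 and 1.25 and then at 0.49, 0.39 and -0.10 (-1.15 ± 0.30, adjusted p = 0.018), and lost its call without proliferating replicate 2 (-0.82, adjusted p = 0.080) or day 1 replicate 3 (-0.97, adjusted p = 0.10). Dnmt3a (0.43), Dnmt3b (-0.52), Tet1 (0.48), Tet2 (1.61) and Tet3 (-0.23) were not called, though Tet2 was without proliferating replicate 3 (2.36, adjusted p = 0.032). On the dim array Tet2 was at -4.04, against -0.90 and -0.23 in the other proliferating samples. Without that array its difference was 0.46 (adjusted p = 0.63), and its 3 probes ran from -0.36 to 1.61. Tet2 was above background on 2 of 3 proliferating arrays. Apobec2, a muscle member of the deaminase family, rose from 0.24, -0.02 and -1.03 to 1.71, 2.00 and 2.08 (2.20 ± 0.39, adjusted p = 0.0012). Ezh2, the polycomb methyltransferase, fell by 1.14 ± 0.30, though not without proliferating replicate 3 (adjusted p = 0.075) or day 1 replicate 3 (0.12), and Cbx2, a polycomb reader, fell by 1.58 ± 0.31. Peg10, an imprinted gene like Cdkn1c, rose by 2.17 ± 0.45, with 2 of 3 proliferating arrays above background, and was 1 of 3 higher among 19 imprinted genes. Imprinted H19 was at 9.57 to 11.20 and at 9.56 to 10.38, overlapping (-0.29 ± 0.68, adjusted p = 0.85).

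The genes with the largest folds that were above background on all 6 samples and did not overlap were in part outside these pathways. Higher were, after Cdkn1c, Ptgds, the prostaglandin D synthase, at -1.27, -2.87 and -3.79 and then at 1.93, 2.77 and 3.51 (5.38 ± 0.56, adjusted p = 1.4e-05), Pde2a, a phosphodiesterase (5.11 ± 0.56), Shisal1 (4.90 ± 0.40) and Asb2, a ubiquitin ligase subunit of muscle (4.42 ± 0.47), beside Idi1, Scd1, Msmo1 and Ckm.

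Several of the lower genes with the largest folds encode hormones or other secreted products, but others, such as Lor, Nr4a2 and Etv4, do not. Sct, the hormone secretin, was at 10.60, 9.76 and 9.04 in proliferation and at 5.39, 5.39 and 4.24 at day 1 (-4.79 ± 0.71, adjusted p = 0.00026). Lor (loricrin) fell by 4.98, Angptl4, an inhibitor of lipoprotein lipase, fell by 4.83, and the proteases Gzme (granzyme E) and Mcpt8 had differences of -4.53 and -4.19. Il11, an interleukin, fell by 3.97 ± 0.82, Apln (apelin) by 3.70 (log2 difference -3.70) and Sema7a, a semaphorin, by 3.47 (log2 difference -3.47 ± 0.81). Nr4a2 and Etv4, described above, complete these 10.

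Markers of other cell types were measured in part. Of 12 fibroblast markers 7 were tested and limma called none, with 0 at an unadjusted p under 0.05 and Dpt and Lum not above background on any of the 6 arrays. With proliferating replicate 2 left out 2 were lower, and with the dim array left out 1 was. Their summed level, in multiples of the 75th percentile, was 15.6 to 32.8 in proliferation and 24.9 to 33.5 at day 1. Of 12 endothelial markers 7, among them Cdh5, were above background on none, and the 4 tested were not called, though 1 was higher without day 1 replicate 2 (summed 11.2 to 50.4 and 10.9 to 16.9). Of 13 leukocyte markers 5, among them Ptprc, were above background on none (summed 26.8 to 94.6 and 28.5 to 33.0). Of the 6 tested 1 was called, Cd14, which fell by 1.98 ± 0.39 (16.7% lower, against 4.00% of all genes tested). Of 10 smooth muscle and pericyte markers 7 were tested and 3 were higher (42.9%, against 6.85% of all genes tested). These were Abcc9 (3.18 ± 0.60, above background on 2 of 3 proliferating arrays), Smtn (2.12 ± 0.36) and Notch3. The 7 differences ran from -0.59 to 3.18 and 4 were positive. Myh11 was above background on none (summed 136 to 322 and 466 to 788). Each sum holds all members on the array, also those not named or not tested. Of 12 adipocyte markers 6, among them Adipoq and Fabp4, were above background on none. Of the 4 tested Plin4 was higher and Car3 lower, neither with every sample left out (summed 7.99 to 30.8 and 3.37 to 4.79). No marker of Schwann cells (summed 4.28 to 9.02 and 4.43 to 8.72) or of red blood cells (0.153 to 0.627 and 0.222 to 2.77) was called by limma, and 0 of either list had an unadjusted p under 0.05. The part of such cells in the results was not tested.

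In the remaining lists the counts stand against 6.85% higher and 4.00% lower over all genes tested. The FoxO, atrophy and autophagy list gave 3 higher, with Atg12 at 2.56 ± 0.61, and 3 lower of 28, with Cebpd at -1.95 ± 0.46. The 2 probes of Atg12 ran from 0.65 to 2.56. Without proliferating replicate 2, which was at -1.36, the difference of Atg12 was 1.41. Stress genes gave 4 higher of 31, led by Herpud1 at 2.17 ± 0.44, and the interferon list 1 of 19, Stat2, at 1.95 ± 0.43. Targets of YAP and SRF gave 2 higher and 4 lower of 29, with Crim1 at -2.87 ± 0.44 and above background on 2 of 3 day 1 arrays, and matrix proteases and inhibitors 4 higher and 3 lower of 22, with Adamts1 at 2.78 ± 0.39. Ribosome biogenesis gave 1 lower of 34, with a median of -0.43 and slide medians of -0.30, -0.20 and -0.63. With every sample left out in turn 4 of the 6 FoxO calls, 1 of 4 stress calls, 1 of 1 interferon calls, 1 of 6 YAP and SRF calls, 3 of 7 protease calls and 0 of 1 ribosome calls were kept.

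**Figure D5:**
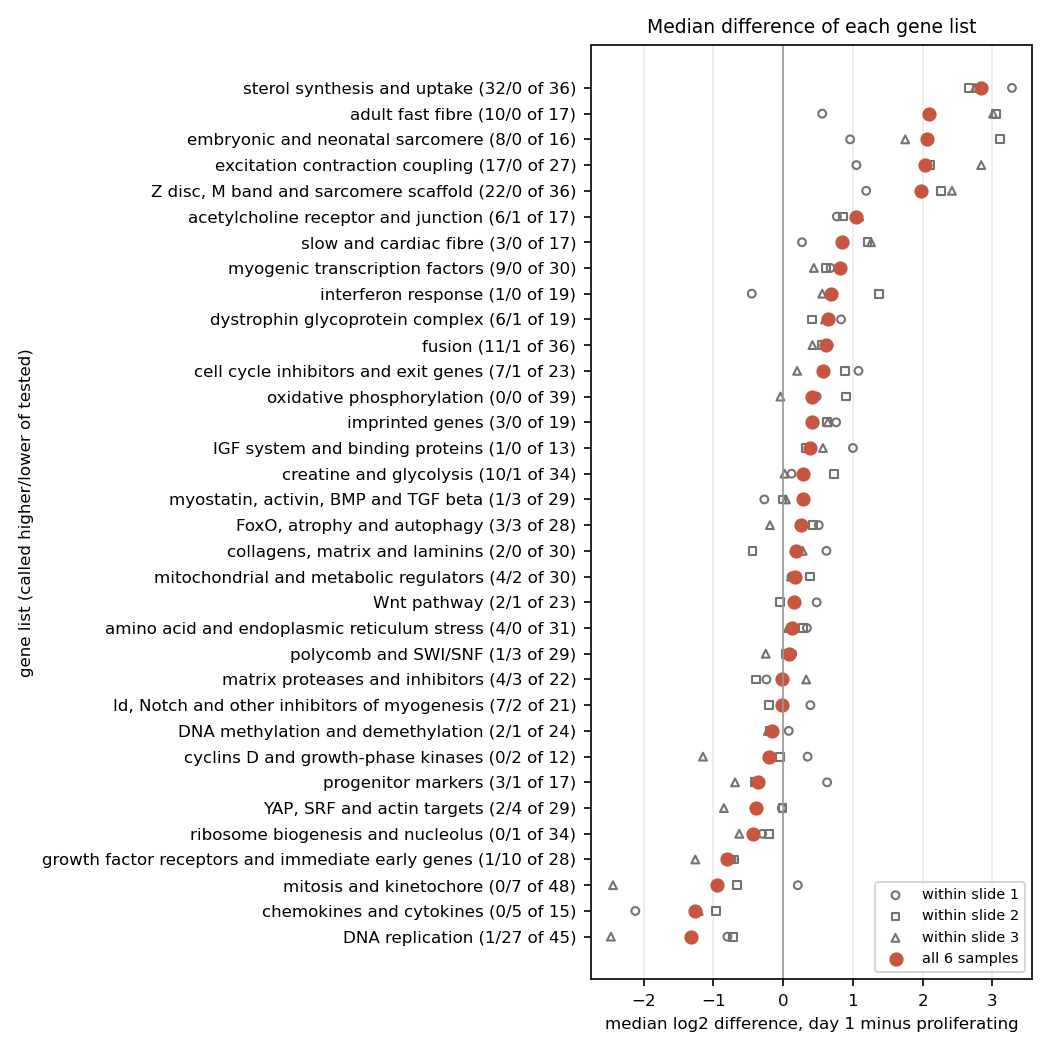
Median log2 difference, day 1 minus proliferating (horizontal axis), of the tested members of each gene list, those of other cell types left out (vertical axis, with the number called higher and lower of those tested). Red points are all 6 samples and open symbols the differences within each of the 3 slides. Sterol synthesis has the highest median (2.83) with slide values of 2.66 to 3.28, and DNA replication the lowest (-1.32) with slide values of -2.47 to -0.72.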

How the data were processed

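RNA levels came from Agilent mouse arrays of 1 colour, 1 per sample except that 1 stem cell line had 2, which were averaged. Per the file headers, Agilent Feature Extraction 10.7.3.1 subtracted background and detrended to give each spot's processed intensity, and set the flags (0 or 1) for spots well above background or out of line. The authors also deposited log2 values, used as an alternative. Genes were named through RefSeq, and probe positions are those of the files, on mm9.

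Each processed signal was set on a log2 scale against the 75th percentile of its array, controls left out. Spots flagged out of line were left out, spots of a probe averaged, and for each gene the probe with the highest mean level was used. With limma 3.58.1 in R 4.3.3 a mean was fitted for each of 7 groups of 3 samples, with 14 residual degrees of freedom and moderated variances. A gene was tested where all 3 samples of either group were well above background, and p-values were adjusted by Benjamini-Hochberg. The fit was tested on simulated data. Their noise was independent between genes and had the same spread in all groups, so they do not cover a dim array or groups of unlike spread. The spread that enters a p-value is that between these samples and may be technical. The number of arrays limits the precision. No spot of the 6 arrays was saturated, and the 3 slides each held 1 sample of either group.

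Named genes were the 10 higher and 10 lower with the largest fold among those above background on all 6 samples without overlap and known to RefSeq, from each list up to 4 called genes, taken by fold, and a set of regulators written down by name. The comparison, the 41 lists and the rule were chosen with earlier results of these data known. Of the list genes Graf1, Myl11 and Hbb-b1 were not matched on the array. Promoters are RefSeq's 250 bases before the start.

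Other settings tried were normexp (offset 50), quantile normalization, the deposited log2 values of the authors, other filters on dim probes, the mean of a gene's probes, the 6 samples alone, array weights, slide or replicate as a block, and each sample left out. The single NOD sample was not used. Some list members count in the totals but are not reported here by name.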

Additional observations from a re-analysis of the deposited data

How the results depend on the processing

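The counts of called genes, 1311 higher and 766 lower, stayed within 1.5 times under normexp, quantile normalization, the authors' values, both filters, the mean of probes and the slide as a block, at 910 to 1378 higher and 641 to 829 lower. The genes called were not all the same. Under these settings 908 to 1296 of the higher and 480 to 753 of the lower were among the main calls. The counts moved further with the 6 samples alone (265 and 119) and, for lower genes, with array weights (1840 higher and 1662 lower, so that 52.5% of calls were higher in place of 63.1%). With array weights 922 of the higher and 676 of the lower were among the main calls. Leaving out each sample in turn gave 788 to 1505 higher and 434 to 985 lower.

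The replicate block, in which a number stands for a culture number, called 0 higher and 0 lower in the 6 samples, where limma has 2 residual degrees of freedom, with 1459 and 1078 at an unadjusted p under 0.05. After removal of group means, same-numbered samples correlated across genes at 0.0031, -0.20 and 0.20. Samples of unlike number in the 2 groups correlated at -0.42 to 0.42. Deviations of 3 samples cancel out within a group, so these values cannot decide whether the numbers mark pairs. The main fit does not pair them. Of 3 alternatives chosen after seeing the data, the replicate block over 12 samples of 4 groups called 1047 and 635, the slide as a block in the 6 samples 676 and 357, and the 6 samples without proliferating replicate 1 545 and 320.

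Of 165 named genes tested, 73 lost their call with the 6 samples alone, 38 without day 1 replicate 3, 22 without a filter on dim probes and at most 21 when any other sample was left out. Igf1 changed direction with the mean of its 5 probes, at 1.52 in place of -0.25. Signal over background limits the genes above it in 1 group: for 114 of the 2077 called genes the other group gives only a bound. The cause of these shifts was not tested.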

Other observations

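The arrays also hold probes for long intergenic noncoding RNA regions, which the files name by mm9 position. Of 2333 such regions tested, 47 (2.01%) were higher at day 1 and 61 (2.61%) lower, against 6.85% and 4.00% of all genes tested. The regions chr10:69669025-69686275 and chr10:69679644-69682458, of which the second lies within the first, read together: the first was at 0.89, 1.98 and 0.49 in proliferation and at 3.74, 4.27 and 4.31 at day 1 (2.98 ± 0.47, limma adjusted p = 0.00043), and the second differed by 2.99 ± 0.63 (adjusted p = 0.0042). A region at chr3:36280098-36347798 was higher by 2.37 ± 0.34, and chr4:88583425-88584070 was lower, at 0.64, 1.62 and 2.91 and then at -0.76, -1.95 and -0.39 (-2.76 ± 0.56, adjusted p = 0.0035). All 4 were above background on all 6 arrays, did not overlap between groups and kept their call with each sample left out. They are examples chosen after their values were seen, and other regions met the same conditions.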
